A study of Mus musculus with 4 samples.

Results

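Has2, Col14a1 and Enpp2 are 3 mouse genes whose proteins act in or supply the space outside the cell, and they lie within 3 Mb of one another on chromosome 15. Their macroH2A islands were described in 2 chromatin immunoprecipitation sequencing (ChIP-seq) libraries of C2C12 cells, a mouse muscle precursor line whose cells leave the cell cycle and fuse into myotubes when serum is lowered. One library was made from myoblasts at day 0 and the other from myotubes at day 5 of differentiation medium, a low-serum medium with horse serum. Both used an antibody named in the labels only as macroH2A, with no isoform given. Input chromatin of both days belongs to the 4 samples of the study but was not analysed here. With 1 library per day there is no replicate, so no test was made and every difference is between these 2 libraries. Whether the cells carried myoblast or myotube markers was not checked here, since only island lists were used.

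The genes were taken by position in mm9. Enpp2 was placed at chr15:54670000-54785000, Col14a1 at chr15:55139000-55353000 and Has2 at chr15:56497000-56527000, and each was described with 200 kb on either side. The lower flank is the one at smaller coordinates. These spans are rounded to about 1 kb. The 46 kb between the flanks of Enpp2 and Col14a1 belong to both. An island is a stretch of enriched windows joined over short gaps, listed with its number of ChIP reads. Of 30016 day 0 islands, 24 touched a gene or a flank, and 6 of them touched a gene. Of 29473 day 5 islands, 18 touched a gene or a flank, and 5 touched a gene. The genes were selected on the read density of their stretch, which was known to be higher at day 5, so their density values are a description and support nothing further.

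MacroH2A is a histone H2A variant with a large macrodomain, found in broad domains and mostly associated with silent or poised genes, though it also lies over some active ones. Has2 encodes hyaluronan synthase, a membrane enzyme that spins the polysaccharide hyaluronan out into the matrix. Col14a1 encodes collagen XIV, a collagen with interrupted triple helices that sits on the surface of collagen fibrils. Enpp2 encodes autotaxin, a secreted enzyme that makes the lipid signal lysophosphatidic acid from lysophosphatidylcholine. The protein of Has2 itself is not secreted, and that of Enpp2 is not a structural part of the matrix. Has2 and Enpp2 are transcribed from their upper end downward, and Col14a1 from its lower end upward.

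Islands held 24365482 reads at day 0 and 29619426 at day 5, and these sums are not the sequencing depth. Where both libraries had an island, day 5 reads per kb divided by day 0 reads per kb had a genome median of 1.14. Ratios called relative below are divided by this median, so that a relative ratio of 1 is the genome's middle. Densities in reads per kb are not scaled. The 95% intervals in parentheses reflect counting error alone, and those of a ratio use reads shared out evenly from whole islands. A count is given per island, so the density within an island is its average and its course inside the island is unknown.

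All 3 genes lay almost wholly under macroH2A islands at both days. Islands covered 98.4% of Enpp2 at day 0 and 98.4% at day 5, 96.6% of Col14a1 at either day, and 90.0% of Has2 at day 0 against its whole span at day 5. By contrast the rest of chromosome 15, outside 50 to 57 Mb, was covered over 29.3% at day 0 and 31.6% at day 5. The 4 Mb below the stretch, chr15:50000000-54000000, were covered over 47.9% and 49.995%. The stretch itself, without the 3 genes and their flanks, was covered over 74.8% at day 0 and 80.8% at day 5. Cover was high through the stretch, and the gene bodies lay above it. The gene bodies were thus already in islands in myoblasts, and over Enpp2 and Col14a1 the covered positions were the same in both libraries. With both flanks, the covered share was 75.9% at day 0 and 87.5% at day 5 for Enpp2, 49.6% and 82.3% for Col14a1, and 83.0% and 87.6% for Has2. At day 0 the share of Enpp2 with flanks was thus near that of the rest of the stretch, and that of Col14a1 below it. Read density over the genes differed, least at Enpp2 and most at Has2.

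**Figure D1:**
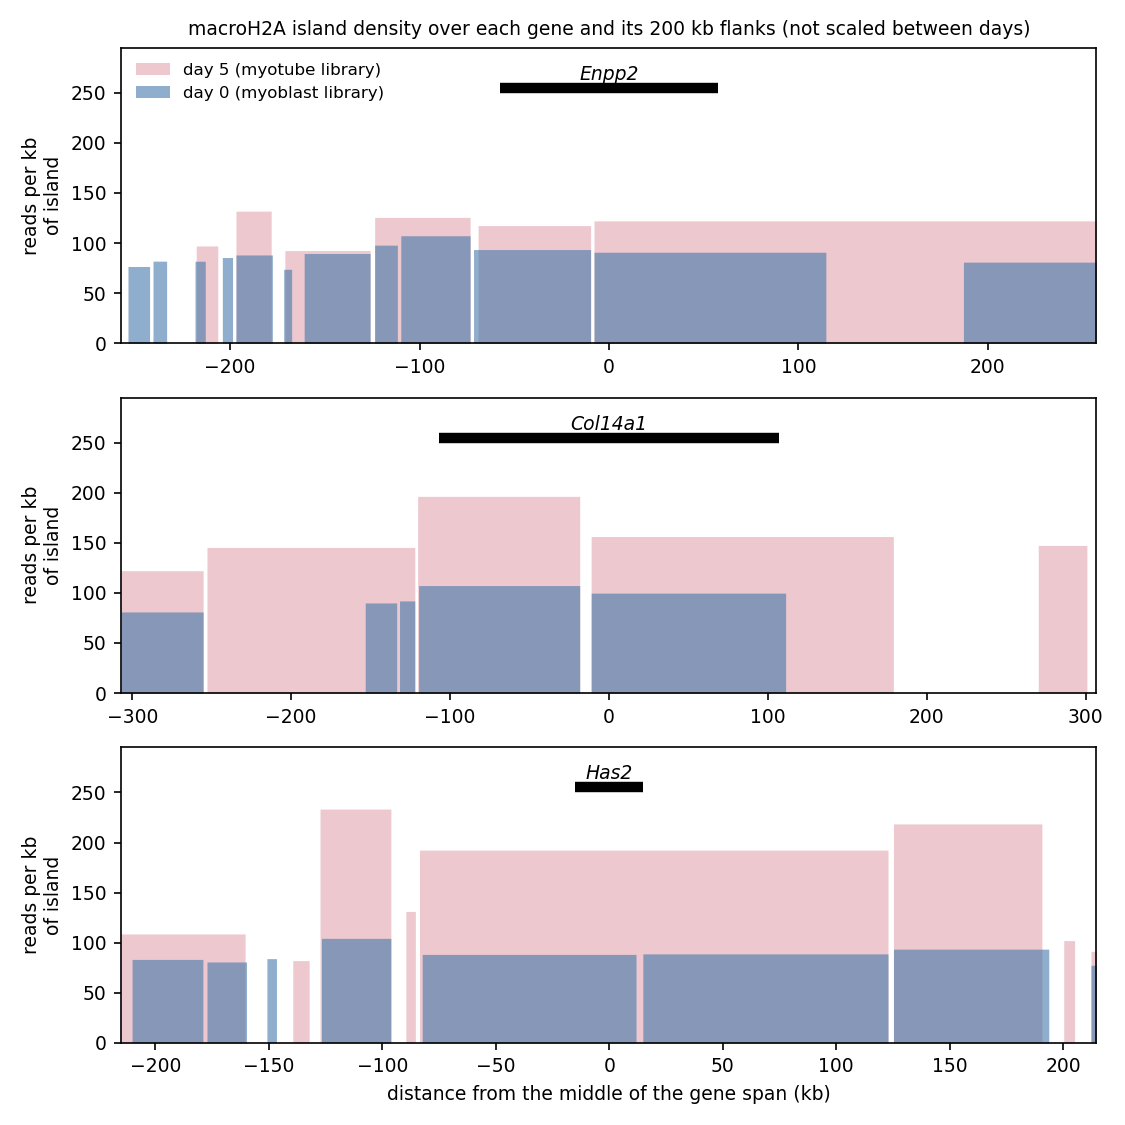
Reads per kb of each macroH2A island (vertical axis, not scaled between days) against distance from the middle of the gene span in kb, for Enpp2, Col14a1 and Has2 with 200 kb flanks. Blue areas are the day 0 library, pink areas the day 5 library, and black bars the genes. Day 0 islands stand at 73.8 to 107 reads per kb in all 3 panels, while day 5 islands reach 132 around Enpp2, 196 around Col14a1 and 233 around Has2.

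Has2 showed the highest relative density at day 5 of the 3 genes. At day 0 its span met 2 islands, chr15:56429401-56523600 with 8316 reads at 88.3 reads per kb (86.4 to 90.2) and chr15:56526601-56634600 with 9594 reads at 88.8 reads per kb (87.1 to 90.6). The first covered 26.6 kb of the 30 kb gene, and the second reached only the last 0.4 kb. Between them lay 3 kb with no listed island at day 0, next to the upper end of the gene, where Has2 transcription starts. At day 5 both myoblast islands and this gap fell under 1 island, chr15:56428201-56634600, which was 206.4 kb wide and held 39720 reads at 192 reads per kb (190.6 to 194.3). The outer borders barely differed, by 1.2 kb at the lower end and not at all at the upper end.

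Over the part of Has2 covered at both days, the density in reads per kb was 88.3 in myoblasts and 192 in myotubes. The ratio was 2.18 (2.08 to 2.29), and the relative ratio 1.91 (1.82 to 2.01). Both flanks were high too. The lower flank had 89.7 reads per kb at day 0 and 174 at day 5, a relative ratio of 1.70 (1.66 to 1.74), and the upper flank had 90.4 and 200.4, a relative ratio of 1.95 (1.91 to 1.98). The ratio of the synthase gene lay between those of its flanks, but it was not measured apart from them. The myotube island over the gene also set the day 5 density of 67.6 kb of the lower flank and 107.6 kb of the upper flank. Those parts had relative ratios of 1.91 and 1.90, so only the outer islands set the flanks apart from the gene.

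Around Has2 the density was uneven, with sharp changes between neighbouring islands. The myotube island chr15:56637001-56702400, 2.4 kb above the one over the gene, had 219 reads per kb, against 93.5 in the myoblast island chr15:56637001-56705400, a relative ratio of 2.05. Below the gene, chr15:56384401-56415600 had 233 reads per kb against 104 at day 0, a relative ratio of 1.97. Farther out the values were lower. The island chr15:56293201-56351400 in the lower flank stood at 109 reads per kb and a relative ratio of 1.16, over myoblast islands of which the wider, chr15:56301601-56332800, had 83.3 reads per kb. The last one in the upper flank, chr15:56724001-56731800, was at 91.4 reads per kb and a relative ratio of 1.04. In the flanks, 3 small myotube islands, 4.2 to 7.2 kb wide, had no myoblast island under them, and 1 myoblast island of 4.2 kb had no myotube island. Over all genes and flanks, 4 of 18 myotube islands (22.2%) had no myoblast island under them. The share was 13.2% in the whole stretch of 54 to 57 Mb and 21.7% in the 4 Mb below it. It was 28.8% in the rest of chromosome 15 and 31.5% in the other autosomes.

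Col14a1 had a density ratio between those of the other 2 genes over its body, and the largest difference in the covered length of its flanks. Its span met 2 islands at either day, separated at both days by the same 7.2 kb without an island, chr15:55227601-55234800. The lower island, which holds the start of the collagen gene, ran from 55126201 to 55227600 at day 0 with 107 reads per kb (105.3 to 109.3). At day 5 it ran from 55125601 to 55227600 with 196 reads per kb (193.6 to 199.1). The relative ratio there was 1.61. The upper island had 99.7 reads per kb (98.0 to 101.5) at day 0 and 156 (154.5 to 158.0) at day 5, and a relative ratio of 1.38. The island with the gene's start was thus the denser one in both libraries. The 2 islands differed more in myotubes, but the upper one then took in 67.8 kb beyond the gene with no myoblast island. Its averages at the 2 days are thus of unlike spans, and a contrast within the gene cannot be read from them. Over the whole gene the densities were 103 and 173 reads per kb, the ratio 1.68 (1.66 to 1.71) and the relative ratio 1.48 (1.45 to 1.505).

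At day 0 the island domain ended close to the end of Col14a1, and at day 5 it ran on. The upper myoblast island stopped at 55357200, which is 4.2 kb beyond the gene, and the next myoblast island began 204.6 kb farther on. The myotube island stopped at 55425000, which is 72 kb beyond the gene. A further myotube island, chr15:55516201-55546800, with 147 reads per kb was the other one of the 4 without a myoblast island. Of the upper flank, islands covered 2.10% at day 0 and 51.3% at day 5. The flank still had 91.2 kb in 1 piece with no island at either day. Below the gene, the covered share of the flank was 46.9% at day 0 and 97.9% at day 5, with 102 kb listed at day 5 only. Most of these were under the myotube island chr15:54993001-55123800, with 145 reads per kb, of which myoblast islands covered 22.5%. In all, 200.4 kb of Col14a1 with its flanks were covered at day 5 only and none at day 0 only.

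**Figure D2:**
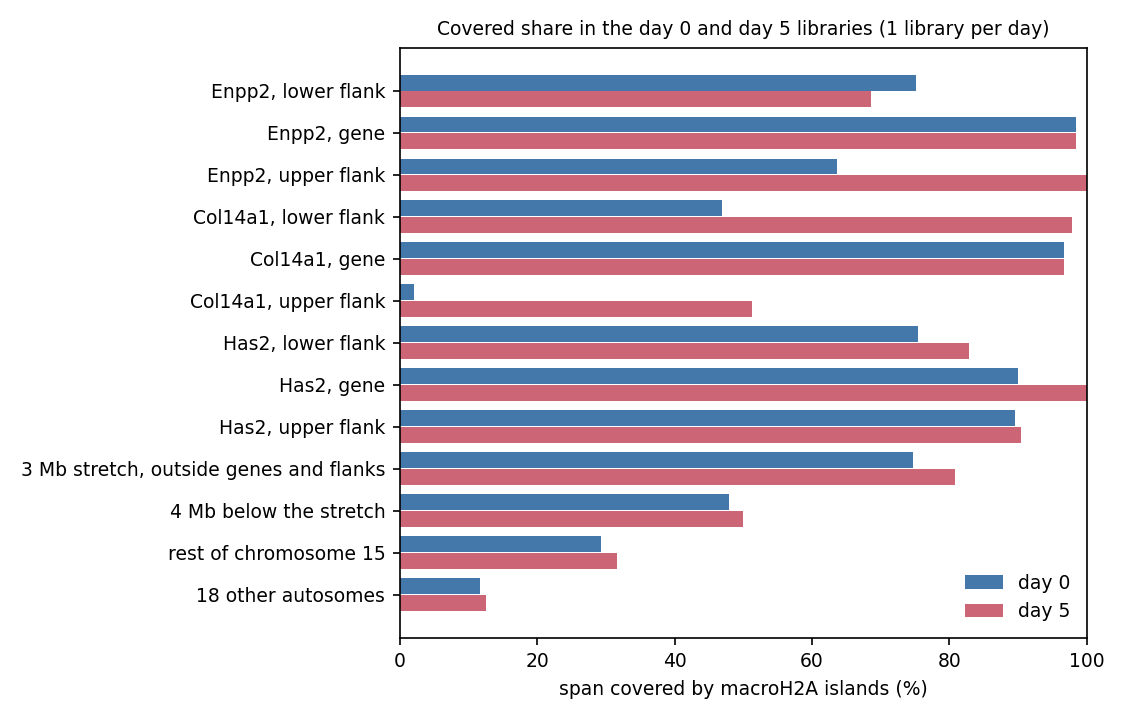
Share of each span covered by macroH2A islands in percent (horizontal axis), for the 3 genes, their flanks and comparison spans, in the day 0 (blue) and day 5 (red) libraries. The gene bodies are at 90.0% or more at both days, and the widest differences are in the Col14a1 flanks, from 46.9% to 97.9% and from 2.10% to 51.3%.

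Enpp2 showed the lowest density ratio of the 3. At day 0 the autotaxin gene met the islands chr15:54655801-54717600, with 5780 reads at 93.5 reads per kb (91.1 to 95.97), and chr15:54719401-54841800, with 11118 reads at 90.8 reads per kb (89.2 to 92.5). At day 5 it met chr15:54658201-54717600 with 117 reads per kb (114.7 to 120.2), and chr15:54719401-54990600 with 122 reads per kb (120.9 to 123.5). A gap of 1.8 kb inside the gene, from 54717601 to 54719400, was at the same place in both lists. Over the gene the densities were 92.0 and 120 reads per kb, the ratio 1.31 (1.27 to 1.34) and the relative ratio 1.15 (1.12 to 1.18). At day 5, 65.6 kb of the gene took the average of a 271.2 kb island that ran 205.6 kb past it. That part of the gene was thus not measured apart from the upper flank.

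The 2 flanks of Enpp2 differed from each other. In the lower flank, islands covered 75.2% at day 0 and 68.6% at day 5, with 28.2 kb at day 0 only and 15 kb at day 5 only, and the relative ratio was 1.06 (1.03 to 1.08). Its widest islands were chr15:54617401-54654000 at day 0, with 107 reads per kb, and chr15:54603601-54654000 at day 5, with 126 reads per kb and a relative ratio of 1.05. This was the only one of the 6 flanks with less covered length at day 5. In the upper flank, beyond the start of the gene, 63.7% was covered at day 0 and all of it at day 5, with a relative ratio of 1.26 (1.23 to 1.29). There the myotube island over the gene's start ran 205.6 kb past the gene, against 56.8 kb for the myoblast island. It took in 72.6 kb that had no myoblast island and a second myoblast island, chr15:54914401-54990600, with 81.0 reads per kb. Both lists set the far border of that domain at the same position, 54990600.

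Between Enpp2 and Col14a1 lie 354 kb, on which the RefSeq order (GRCm38.p6) places Taf2, Dscc1 and Deptor. Islands covered 49.5% of this interval at day 0 and 98.8% at day 5. With islands closer than 5 kb merged, the myotube list had 1 domain of 671.4 kb, chr15:54556201-55227600, that held all of Enpp2 and the start of Col14a1, at 134 reads per kb. Merged in the same way, the myoblast list had separate domains of 275.4 kb over Enpp2 and 135 kb over the lower part of Col14a1. The upper part of Col14a1 stayed in a separate myotube island at 156 reads per kb. Recomputed from merged islands and divided by their own genome median of 1.15, the relative ratio was 1.27 for Enpp2, 1.27 for Col14a1 and 1.92 for Has2. Merging gives Enpp2 and the lower part of Col14a1 the same myotube density by construction.

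**Figure D3:**
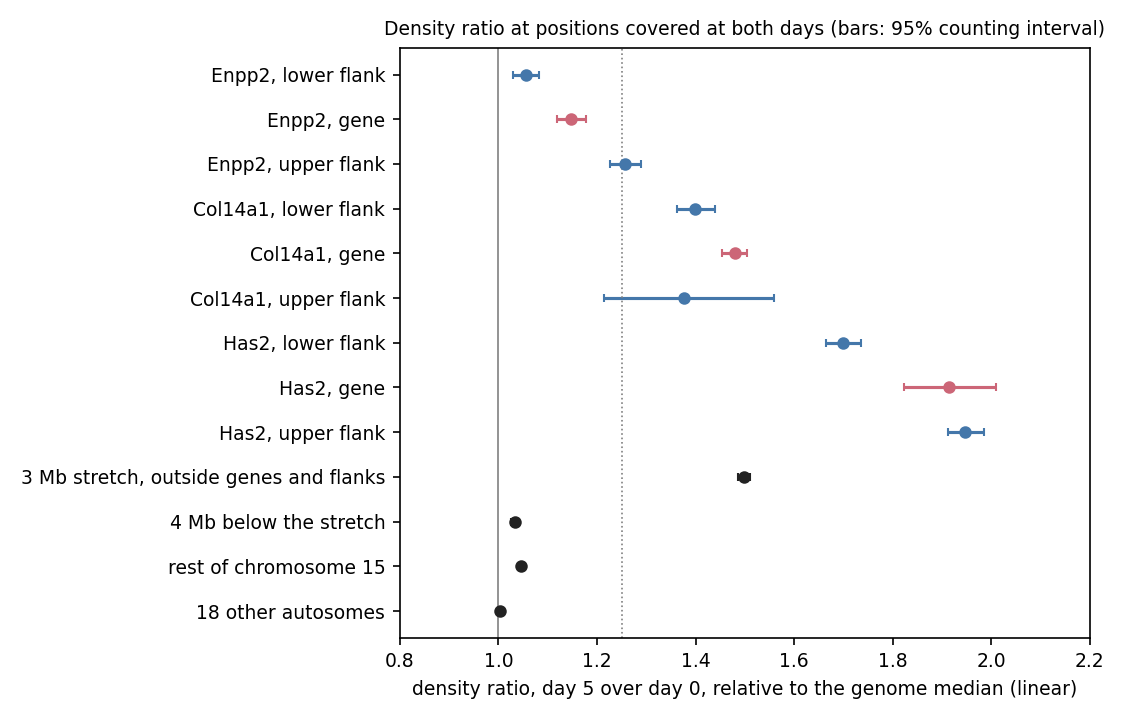
Density ratio, day 5 over day 0, relative to the genome median (horizontal axis, linear) at positions covered at both days, with 95% counting intervals. Red points are genes, blue points flanks and black points comparison spans, the solid line marks 1 and the dotted line 25% above it. Values run from 1.06 below Enpp2 to 1.95 above Has2, while the 4 Mb below the stretch stand at 1.03.

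Set against other chromatin, the stretch as a whole was high, with or without the genes. Positions covered at both days had a relative ratio of 1.49 (1.48 to 1.4996) in chr15:54000000-57000000. Without the 3 genes and their flanks, the same stretch stood at 1.497 (1.485 to 1.51), above Enpp2, close to Col14a1 and below Has2. The relative ratio was 1.03 (1.03 to 1.04) in the 4 Mb below it, 1.05 (1.04 to 1.05) in the rest of chromosome 15 and 1.00 in the other 18 autosomes. Day 0 densities differed much less. They were 90.6 reads per kb in the stretch, 83.9 in the 4 Mb below it, and 88.9 in the rest of the chromosome. The elevated values were hence on the myotube side, at 154, 98.7 and 106 reads per kb.

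The stretch held 214 windows of 10 kb in which both libraries covered 5 kb or more. In 139 of them the relative ratio was more than 25% above 1, and in none more than 20% below it. The same held for 5.83% of 21126 windows over the genome, 9.28% of 2348 in the rest of chromosome 15 and 3.49% of 172 in the 4 Mb below the stretch, and 4.03% of genome windows were past the fold in the other direction. The choice of the genes used this contrast, so these shares are given as a description. All 23 windows over Col14a1 and all 4 over Has2 were past the fold, and 0 of 12 over Enpp2 were. With flanks, the counts were 33 of 33 for Col14a1, 31 of 37 for Has2 and 10 of 37 for Enpp2. Windows under 1 island share its density, so these counts are not independent measurements. Outside genes and flanks, 71 of 113 windows of the stretch were past it as well.

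The high density was in blocks and not spread evenly through the stretch. Of 46 myotube islands there with a myoblast island beneath, 25 were more than 25% above 1. Of these, 24 fell into 5 runs of neighbouring islands and 1 stood alone. No share of islands past this level is given here for other regions. The stretch was selected on this density, so the count and the runs are a description. Myotube islands with no myoblast island beneath have no ratio and were passed over in forming runs. Has2 lay in the run chr15:56384401-56702400, with relative ratios of 1.91 to 2.05. Col14a1 lay in the run chr15:54993001-55425000, at 1.38 to 1.61. Neither Enpp2 island belonged to a run, at 1.103 and 1.23. Going from Enpp2 to Col14a1, the island values climbed from 1.05 just below Enpp2 through 1.103, 1.23 and 1.41 to 1.61. The climb did not extend to either side, with 1.31 and then 0.922 before it and 1.38 at the upper Col14a1 island. The value of 1.41 rests on the 22.5% of that island that was covered at day 0. Ranked by relative ratio were 3047 myotube islands of at least 20 kb with 50% or more of their length covered at day 0. The genes were selected on this density, so the ranks are a description. The island over Has2 was number 7, below chr15:56637001-56702400 and chr15:56384401-56415600 in its flanks, at numbers 4 and 5. The Col14a1 islands were numbers 27 and 63, and the Enpp2 islands numbers 183 and 727. Chromosome 15 held 453 of the ranked islands, among them all of the first 7. The highest window of 10 kb on the chromosome lay outside the stretch, at a relative ratio of 2.37 against 2.24 at most within it. Input reads were not analysed here, so these are ratios of ChIP reads alone.

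**Figure D4:**
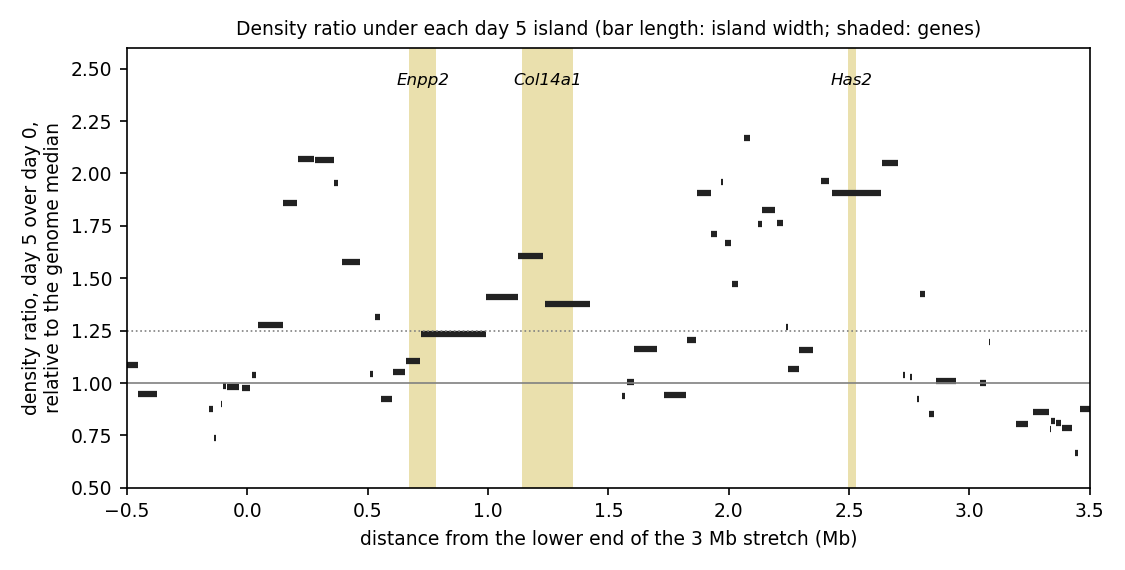
Density ratio, day 5 over day 0, relative to the genome median (vertical axis) under each day 5 island, against distance in Mb from the lower end of the 3 Mb stretch. Bar length is island width, shading marks the 3 genes, and lines mark 1 and 25% above it. Has2 sits in a block at 1.91 to 2.05, Col14a1 in one at 1.38 to 1.61 and Enpp2 at 1.103 to 1.23. Between Col14a1 and Has2 lie islands near 1 and another block at 1.27 to 2.17.

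Island borders coincided often around the genes. Of 34 myotube island borders inside the genes and flanks, 14 (41.2%) were at exactly the position of a myoblast border of the same side. In the 4 Mb below the stretch this was 16.9% of 183 borders. It was 18.7% of 2968 in the rest of chromosome 15 and 11.0% of 54178 in the other autosomes. The covered share also differs between these regions, and border matches were not adjusted for it. The whole stretch had 43 of 105 (41.0%), a share near that of the genes and flanks. By gene with flanks, the counts were 6 of 11 for Enpp2, 4 of 9 for Col14a1 and 4 of 14 for Has2. Joining was also common, since 6 of 18 myotube islands at the genes and flanks overlapped 2 or more myoblast islands. That share was 33.3%, against 28.3% (15 of 53) in the whole stretch, 19.6% in the 4 Mb below it, 13.4% in the rest of chromosome 15 and 14.1% in the other autosomes. Those 6 islands were 45 to 271.2 kb wide, while myotube islands of the other autosomes averaged 11.0 kb, and wider islands can meet more of the other list. The stretch was selected on its day 5 density, so joining and covered shares are a description too. Whether they depend on that density was not tested.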

How the data were processed

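MacroH2A ChIP-seq libraries of C2C12 cells, 1 per day, were analysed from the deposited island lists, which give chromosome, start, end and an unscaled ChIP read count per island. Per the submitters' processing notes, MACS 1.4.2, SICER 1.1, Bowtie2 2.2.6 and CASAVA 1.4 were used with mm9, in roles not stated. File naming gives SICER-style settings (window 600 bp, gap 1200 bp, FDR 0.01). Use of the input in calling, and duplicate handling, are not given in the sources used here. Rows may be missing, so a missing island means only that none was listed.

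Coordinates count from 1. Reads were spread evenly over each island, and densities compared at positions covered at both days, divided by the genome median ratio. Intervals of an island's density are exact Poisson. Those of a ratio are conditional binomial, with the median taken as fixed. Their read numbers are island density times the length covered at both days and were not counted there, so these intervals are approximate. The code was checked on simulated data with the day 0 island borders kept at both days. That check covered the scale, the ratios and the window calls. It did not cover covered shares, border matches, joining or merging. The members and lists were chosen with earlier results of these data known. The islands printed are, per day, those over a gene and the widest in each flank, and other flank islands were chosen after their values were seen. Border matches, joining, runs, ranks and merged domains were chosen after the values were seen. Other matrix, hyaluronan and lysophosphatidic acid genes were not placed, since the gene table at hand is of another build, and it was used for gene order only. Its promoter table held no entry for the 3 genes. Alternatives changed the scaling, the positions averaged, low islands, merging, flanks, a floor of 70 reads per kb, fold and window. Python 3.11.15, NumPy 2.4.6, SciPy 1.17.1 and matplotlib 3.10.9 were used.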

Additional observations from a re-analysis of the deposited data

How the results depend on the processing

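Of 42 recomputed values, 34 stayed within a set tolerance of the value reported, 8 moved and 0 reversed. The tolerance was the counting interval for a ratio and 1.5 times for a count of windows. For the 12 differences in covered share of gene with flanks it was a binomial interval over 600 bp windows, which treats windows of 1 island as independent. Of the 42, 9 were identical to the reported value and say nothing about stability. The scaled floor of 70 reads per kb, for example, removed no island at the genes or flanks. Changing the scale, or leaving out the islands with fewest reads, altered only the divisor of the gene ratios. Those values do not recheck the densities of the genes either. Scaled by total island reads in place of the genome median, the relative ratio was 1.07 for Enpp2, 1.39 for Col14a1 and 1.79 for Has2. With islands merged within 5 kb it was 1.27 for Enpp2, now more than 25% above 1, and 1.27 for Col14a1, since by construction Enpp2 and the lower part of Col14a1 share a merged myotube domain. Averaged over whole islands that touch the gene, Col14a1 was at 1.45, and over the whole span with uncovered positions as 0, Has2 was at 2.13, since its gap at day 0 then counts. In windows of 20 kb, 69 of 108 were past the fold, fewer by construction. No paired analysis was possible because each day has 1 library.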

Other observations

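The 3 Mb around the genes also held blocks of high myotube density that lie over none of the 3. From 54043201 to 54465600 on chromosome 15, below Enpp2, 6 myotube islands with a myoblast island beneath had relative ratios of 1.28 to 2.07. Between Col14a1 and Has2, 10 such islands from 55869601 to 56245200 stood at 1.27 to 2.17. The highest of them, chr15:56062201-56086200, had 328 reads per kb at day 5 against 133 at day 0. By RefSeq order, the protein-coding genes between Col14a1 and Has2 are Mrpl13, Mtbp and Sntb1.

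Just above the stretch the relation was the other way round. From 57 to 57.5 Mb the relative ratio was 0.837, with 92.1 reads per kb at day 0 and 87.8 at day 5, and from 57.5 to 58 Mb it was 0.846. From 53.5 to 54 Mb, just below, it was 0.979. No cause of these differences was tested.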
